A study of Mus musculus with 8 samples.

Results

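Tubulins and actins, with the actin-like proteins, actin-related proteins, profilins, cofilins and beta thymosins that belong to or regulate these polymers, were followed in the mouse testis. Members were chosen by gene symbol alone, as every transcript whose symbol begins with Tuba, Tubb, Actl, Actr and a digit, Actrt, Tmsb, Cfl or Pfn, or reads Actb, Actg1 or Acta2. This gave 32 transcripts of 29 genes, out of 2783 transcripts in the table, and they held 10838 of 621202 reads. In each library they took between 1.51% and 2.14% of the reads of these 2783 transcripts. Of the 32 transcripts, 9 belong to genes known to be restricted to, or strongly enriched in, male germ cells (Tuba3a, Tuba3b, Tuba8, Actl7a, Actl7b, Actl9, Actl11, Actrt2 and Pfn4), and the other 23 belong to genes used by many cell types. Placing Tuba8 among the germ cell genes is the least certain of these assignments.

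Poly(A) RNA was taken from whole testes of adult male mice and read by direct RNA sequencing on nanopores, so that 1 read stands for 1 molecule and carries an estimate of its poly(A) tail. The animals were Tent5c wt/wt (wt) or Tent5c dcat/dcat (dcat), the latter carrying in both copies an allele whose product lacks poly(A) polymerase activity, and each received 1 dose of busulfan (20 mg/kg) or of its vehicle 4 weeks before the testes were taken. Each of the 4 groups (each genotype with each treatment) held 2 mice and therefore 2 libraries. Busulfan is an alkylating drug that depletes germ cells, and the study used it to enrich the testis for interstitial cells. Every cell of a dcat animal carried the allele, and a whole testis mixes germ, Sertoli, Leydig, peritubular and blood-borne cells.

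Microtubules are built from alpha-beta tubulin dimers and form the meiotic spindle, the manchette that shapes the spermatid head, and the axoneme of the sperm tail. Actin filaments build the cell cortex, the contractile layer of peritubular cells and the junctions between Sertoli cells and spermatids. Spermatids also make actin-like proteins that are found in few other cells and that take part in forming the acrosome and the head. Profilin, cofilin and beta thymosin bind actin monomers or filaments and set how much of the actin is polymerised.

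Over the 2783 transcripts, libraries held 29574 to 129074 reads, and the shallowest and the deepest were both from the dcat vehicle group. Reads of other transcripts are left out of these totals, and the study reports more reads per library after its quality check. Every CPM and share of a library here is taken over these totals. Late spermatid markers (8 of 8 listed genes in the table, among them Prm1, Prm2, Tnp1 and Odf1) summed to 89572 to 111938 CPM (reads per 1000000 reads of the library) in the 4 vehicle libraries and to 8630 to 36194 in the 4 busulfan libraries. Their sums in dcat busulfan, 20022 in replicate 1 and 36194 in replicate 2, lay above those in wt busulfan, 8630 and 11869. Sertoli markers (5 of 8) ran the other way, with 1970 to 3314 CPM after vehicle and 15315 to 20671 after busulfan, and Leydig markers (6 of 7) with 3316 to 6323 and 20455 to 44990. After busulfan the Leydig sums were 39787 and 44990 in wt and 24349 and 20455 in dcat, and erythroid markers (2 of 4) summed to 924 and 771 CPM in wt and to 0 and 20.7 in dcat. Tent5c itself, whose dcat transcript is still made, gave 22 to 115 reads in every vehicle library and 18 to 66 in every busulfan library, so its level does not check the genotype labels. In bulk RNA of this kind, fewer cells of a type and less RNA per cell cannot be told apart.

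The start regions of 6 transcripts are printed here because they show the pairs that the counts and tails turn on: an alpha-tubulin of germ cells beside a general one, an actin-like gene of spermatids beside a general actin, and the alternative starts of Tmsb10, which has 3 RefSeq start sites, of which the windows of the inner and the middle one are printed. Windows run from 250 bases before to 50 bases after a RefSeq start site (mouse GRCm38.p6) in the direction of transcription, and capitals mark the TATA box letters TATAA, the CAAT box letters CCAAT or the GC box letters GGGCGG on either strand, with overlapping matches run together. Of the 29 genes, 27 had such a window.

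Tuba3a, chr6:125286032-125286331, minus strand: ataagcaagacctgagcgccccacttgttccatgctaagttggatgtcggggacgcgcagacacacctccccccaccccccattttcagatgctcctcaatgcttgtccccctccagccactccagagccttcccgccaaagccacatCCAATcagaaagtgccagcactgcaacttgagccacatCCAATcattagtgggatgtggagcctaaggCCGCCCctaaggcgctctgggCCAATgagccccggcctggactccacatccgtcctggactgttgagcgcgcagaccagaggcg
Tuba1a, chr15:98953452-98953751, minus strand: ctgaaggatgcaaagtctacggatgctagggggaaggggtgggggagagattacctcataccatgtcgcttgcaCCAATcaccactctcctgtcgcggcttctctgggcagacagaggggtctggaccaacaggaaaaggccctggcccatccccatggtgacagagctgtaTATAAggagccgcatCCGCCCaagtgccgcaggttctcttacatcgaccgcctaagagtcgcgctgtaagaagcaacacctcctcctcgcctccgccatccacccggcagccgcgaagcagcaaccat
Actl9, chr17:33432649-33432948, plus strand: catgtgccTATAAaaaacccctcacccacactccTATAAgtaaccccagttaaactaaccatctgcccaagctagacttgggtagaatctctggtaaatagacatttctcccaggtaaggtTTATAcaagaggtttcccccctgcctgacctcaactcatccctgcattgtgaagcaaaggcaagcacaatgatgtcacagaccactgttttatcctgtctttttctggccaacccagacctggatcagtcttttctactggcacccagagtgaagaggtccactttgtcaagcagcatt
Actg1, chr11:120348446-120348745, minus strand: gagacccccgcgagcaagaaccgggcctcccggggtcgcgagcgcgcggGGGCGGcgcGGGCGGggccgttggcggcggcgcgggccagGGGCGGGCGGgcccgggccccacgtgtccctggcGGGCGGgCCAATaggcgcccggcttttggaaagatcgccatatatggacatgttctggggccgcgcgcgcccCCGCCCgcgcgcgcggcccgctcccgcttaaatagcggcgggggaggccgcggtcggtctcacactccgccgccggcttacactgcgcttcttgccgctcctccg
Tmsb10, middle start, the nearest to the annotated start of Tmsb10-203, chr6:72958434-72958733, minus strand: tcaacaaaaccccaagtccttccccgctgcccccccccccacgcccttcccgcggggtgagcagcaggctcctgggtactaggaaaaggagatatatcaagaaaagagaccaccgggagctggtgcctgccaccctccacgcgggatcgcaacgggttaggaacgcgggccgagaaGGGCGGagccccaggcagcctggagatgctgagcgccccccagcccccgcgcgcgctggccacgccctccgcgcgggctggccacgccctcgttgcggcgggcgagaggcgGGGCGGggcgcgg
Tmsb10, inner start, the nearest to the annotated start of Tmsb10-202, chr6:72958183-72958482, minus strand: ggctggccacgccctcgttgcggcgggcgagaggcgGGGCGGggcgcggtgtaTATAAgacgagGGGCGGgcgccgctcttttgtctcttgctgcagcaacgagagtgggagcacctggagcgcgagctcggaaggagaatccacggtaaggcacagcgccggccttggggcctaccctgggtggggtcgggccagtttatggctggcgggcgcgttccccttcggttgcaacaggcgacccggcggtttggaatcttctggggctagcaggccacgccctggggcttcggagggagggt

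The GC box letters GGGCGG (searched on both strands) were present in the windows of 2 of 9 germ cell genes and of 16 of 18 general genes, against 35.7% of all 32851 RefSeq windows of that length. CCAAT was present in 4 of 9 and 10 of 18, against 37.4% of all windows, and TATAA in 1 of 9 and 7 of 18, against 24.9%. The germ cell windows held 0 to 35 CpG dinucleotides, with a median of 4 against 21 in the general windows and 7 in all windows. Those of the 5 actin-like genes held 0 to 4, while Tuba3a and Tuba8 with 12, Tuba3b with 16 and Pfn4 with 35 lay above the median of all windows. Actl9, printed above, had 0 CpG and Actg1 had 50. TGACGT, a core of the cyclic AMP response element, was present in 0 of 9 and 2 of 18 windows, against 7.51% of all. A CArG box, the site read by serum response factor, was found in 1 of the 27 genes, Actg1, against 1.63% of all windows. The genes of the germ cell set also differ in structure: Actl7a, Actl7b, Actl9, Actl11 and Actrt2 each have 1 exon. Actl7a and Actl7b lie back to back on chromosome 4 (GRCm38, 56743413 to 56744925 on the plus strand and 56740005 to 56741443 on the minus strand). At the other end of the transcripts, the last 50 bases held the polyadenylation signal AATAAA in 3 of 9 germ cell and 18 of 23 general transcripts, against 65.2% of the 2738 transcripts that could be looked up. ATTAAA without AATAAA was present in 3 of 9 and 4 of 23, against 13.8%.

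The first comparison asked how the 2 classes of isoform changed when germ cells were depleted in wt testes. Reads of all 9 germ cell transcripts fell, and reads of the general transcripts went in both directions, with 12 of 23 higher and 6 of 23 lower. To be in the table, a transcript needed 10 reads or more in both mice of some group. Of the 9 germ cell transcripts, 7 (all but Tuba3a and Tuba3b) met this in vehicle groups only. Of the 23 general transcripts, 7 met it in busulfan groups only (Tuba1a, Tubb3, Tubb5, Acta2, Actr2, Pfn1 and Tmsb15b2). Another 2 (Tuba4a and Pfn2) met it in vehicle groups only. Some difference in these 16 was thus built into the selection. Over the 32 members this makes 12 higher and 15 lower at an adjusted p under 0.05, where 35.4% of all transcripts were higher and 38.3% lower. The germ cell transcripts had a median log2 fold change of -4.12, the general ones of 0.95 and all transcripts together of 0.09. In dcat testes, 8 of 9 germ cell transcripts fell, and 10 general transcripts rose and 4 fell, against 31.3% of all transcripts higher and 31.4% lower. There the medians were -1.91 for germ cell, 0.81 for general and 0.14 for all transcripts. Counts were compared by edgeR's quasi-likelihood test with Benjamini-Hochberg adjustment over all 2783 transcripts, and levels below are CPM after TMM scaling of the library totals, given for replicates 1 and 2 of each group in turn. Where values follow each other unlabelled, they run from wt to dcat and, within a genotype, from vehicle to busulfan. DESeq2, which scales differently, called 7 members higher and 15 lower in wt and 6 higher and 11 lower in dcat. RLE in place of TMM scaling took the median over all transcripts from 0.09 to -0.03 for wt and from 0.14 to -0.08 for dcat.

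**Figure D1:**
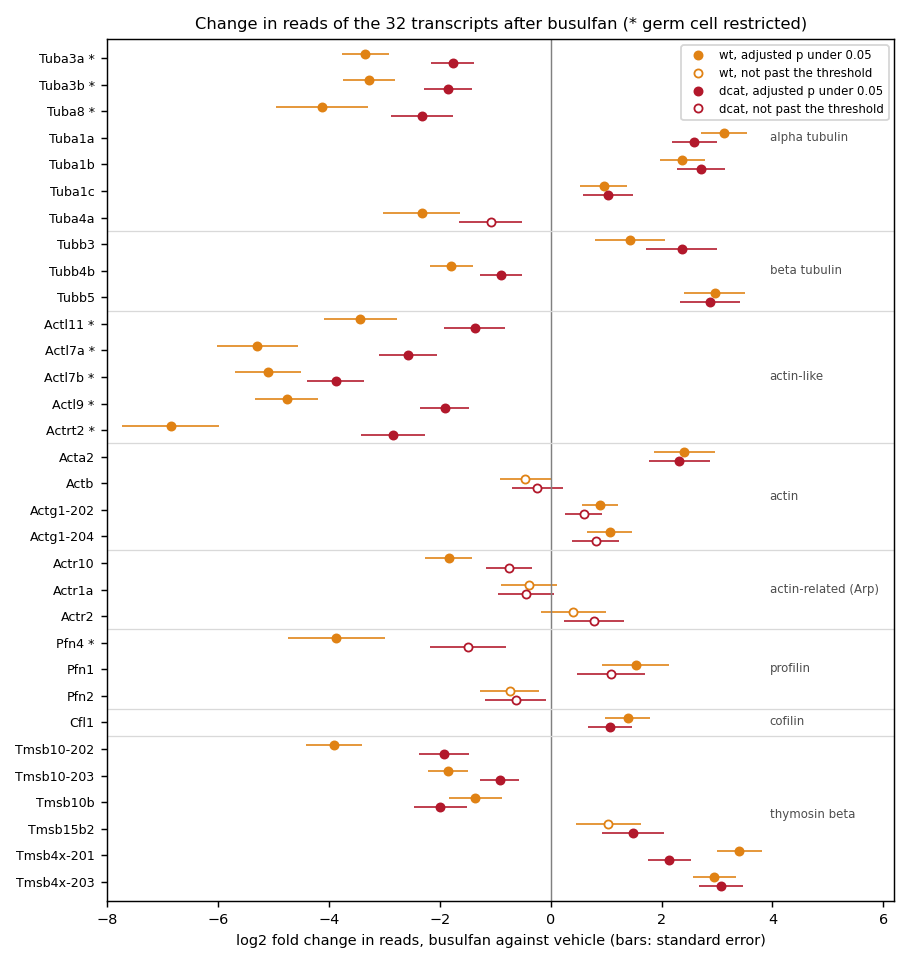
Log2 fold change in reads after busulfan for each of the 32 transcripts, in wt (orange) and dcat (red) testes, with bars of 1 standard error. Filled points have an adjusted p under 0.05. The 9 germ cell restricted transcripts (starred) all lie left of 0, while Tuba1a, Tuba1b, Tubb5, Acta2 and Tmsb4x lie right of it in both genotypes.

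Among the alpha-tubulins, Tuba3a and Tuba3b, which encode the testis form of the protein, had 1726 to 2886 CPM in the 4 vehicle libraries. Tuba3a (chromosome 6, 125278274 to 125286042) stood at 2382 and 1988 with vehicle against 209 and 217 with busulfan in wt, and 1726 and 2013 against 289 and 782 in dcat. Tuba3b (chromosome 6, 145615757 to 145621479) stood at 2886 and 2273, 144 and 367, 2157 and 2285, and 241 and 945. Vehicle and busulfan libraries did not overlap for either gene in either genotype, as was so for many others: both busulfan libraries lay below both vehicle libraries for 43.3% of all transcripts in wt and 37.5% in dcat, and above them for 45% and 42.3%. Of the 4 busulfan libraries, dcat busulfan replicate 2 was the highest for both. Tuba3a fell by 3.34 ± 0.42 on the log2 scale in wt (SE, n = 2 per group, edgeR adjusted p = 6.1e-07) and fell by 1.77 ± 0.39 in dcat (edgeR adjusted p = 0.00066). Tuba3b fell by 3.28 ± 0.47 in wt (edgeR adjusted p = 2.7e-06) and fell by 1.86 ± 0.44 in dcat (edgeR adjusted p = 0.0012). Their last 1000 bases share 51.2% of 31-base words, so reads may have been exchanged between the pair.

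Of the general alpha-tubulins, Tuba1a, Tuba1b and Tuba1c moved the other way. Tuba1a entered the table through busulfan groups only, so some rise was built into its selection. Tuba1a, the isoform best known from neurons, had 174 and 143 CPM with vehicle against 1335 and 1440 with busulfan in wt, and 232 and 176 against 1236 and 1108 in dcat. Tuba1b, which is made in most cells, had 232 and 272, 1152 and 1488, 265 and 136, and 1156 and 1130. For both, each busulfan library was at least as high as 1108 and each vehicle library at most 272. Tuba1a rose by 3.13 ± 0.42 in wt (edgeR adjusted p = 1.3e-06) and 2.59 ± 0.41 in dcat (edgeR adjusted p = 5.7e-05), and Tuba1b by 2.38 ± 0.40 and 2.71 ± 0.44. Tuba1c rose less, by 0.95 ± 0.43 in wt (edgeR adjusted p = 0.047) and 1.03 ± 0.45 in dcat (edgeR adjusted p = 0.049). Both calls lay close to the threshold of 0.05. With the multiplexed library as a replicate block it passed in neither (edgeR adjusted p = 0.056 in wt and 0.066 in dcat). Its call in dcat was also lost without dcat vehicle replicate 2. Tuba4a, an isoform known from brain, muscle and platelets, fell by 2.33 ± 0.70 in wt, and its value in dcat was -1.08 ± 0.56 (edgeR adjusted p = 0.095). It reached 10 reads in both mice in dcat vehicle only, and its call in wt was lost without wt vehicle replicate 2 (-1.52, edgeR adjusted p = 0.17). Tuba1a, Tuba1b and Tuba1c share 52.6% to 64.2% of the 31-base words at their 3′ ends and are uncertain as single isoforms. Tuba8 had 7 to 53 reads in the vehicle libraries and 2 in all in wt busulfan, which makes vehicle over busulfan 19.5 (counting interval 4.89 to 170) in wt, and it fell by 2.33 ± 0.56 on the log2 scale in dcat (edgeR adjusted p = 0.0014).

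Tuba3a, Tuba3b and Tuba8 together made up 87.5% and 84.0% of alpha-tubulin reads in wt vehicle and 79.5% and 87.9% in dcat vehicle. After busulfan they made up 10.7% (95% Wilson interval 7.47 to 15.1) and 14.8% (11.8 to 18.5) in wt, and 16.4% (12.1 to 21.8) and 40.5% (35.9 to 45.3) in dcat. The intervals cover counting error only. The testes thus went from an alpha-tubulin pool read mainly from germ cell isoforms to a pool read mainly from general isoforms, and dcat busulfan replicate 2 lay between these states.

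Beta-tubulin has no isoform in the germ cell set here, yet its members also split. Tubb4b, a broadly made isoform that is also a main beta-tubulin of axonemes, had 2421 and 1845 CPM with vehicle against 458 and 753 with busulfan in wt, and 1527 and 1989 against 562 and 1315 in dcat. It fell by 1.79 ± 0.39 in wt (edgeR adjusted p = 0.00024) and fell by 0.90 ± 0.38 in dcat (edgeR adjusted p = 0.041). Tubb5, the common beta-tubulin of dividing and somatic cells, had 136 and 28.6 with vehicle against 602 and 593 with busulfan in wt, and 133 and 63.9 against 642 and 565 in dcat. It rose by 2.96 ± 0.55 in wt (edgeR adjusted p = 4.9e-05) and by 2.87 ± 0.54 in dcat (edgeR adjusted p = 0.00023). Tubb5 and Tubb3 entered the table through busulfan groups only, so some rise was built into their selection. Tubb3, named for its use in neurons, rose by 1.43 ± 0.63 in wt (edgeR adjusted p = 0.044) and by 2.37 ± 0.64 in dcat (edgeR adjusted p = 0.0033). Its call in wt was lost under DESeq2 (adjusted p = 0.24), RLE scaling (edgeR adjusted p = 0.058), the replicate block (edgeR adjusted p = 0.062) and without wt busulfan replicate 2 (0.65, edgeR adjusted p = 0.49) or wt vehicle replicate 2 (1.14, edgeR adjusted p = 0.17), and its call in dcat under DESeq2 (adjusted p = 0.065) and without dcat vehicle replicate 2 (1.91, edgeR adjusted p = 0.13). Tubb4b gave 91.2% and 96.3% of beta-tubulin reads with vehicle against 39.3% and 47.3% with busulfan in wt, and 88.5% and 95% against 40.2% and 60.8% in dcat. Thus Tubb4b, classed as general, fell in both genotypes as Tuba3a and Tuba3b did. Its call in dcat was lost with only the 4 dcat libraries (edgeR adjusted p = 0.068) and without dcat busulfan replicate 1 (-0.44, edgeR adjusted p = 0.36), dcat vehicle replicate 2 (-0.61, edgeR adjusted p = 0.24) or wt busulfan replicate 2 (-0.90, edgeR adjusted p = 0.051).

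**Figure D2:**
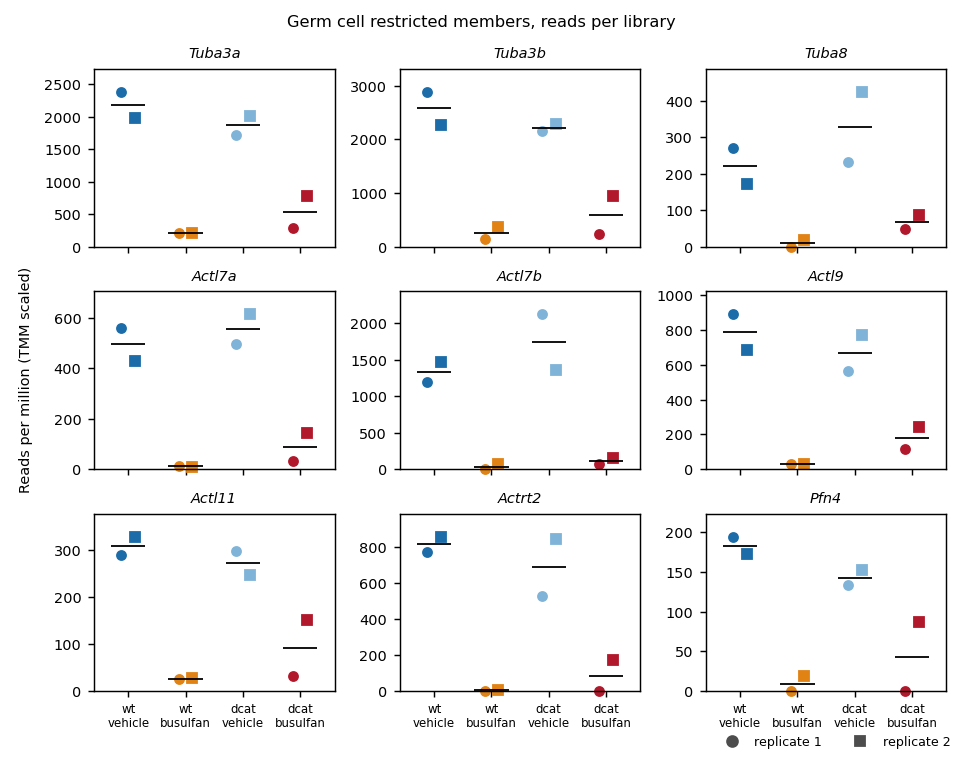
Level, in TMM scaled CPM (reads per 1000000) on linear axes from 0, of the 9 germ cell restricted transcripts in each library, with circles for replicate 1, squares for replicate 2 and a bar at the mean of the 2 libraries. Every vehicle library lies above every busulfan library of its genotype, as for 43.3% of all transcripts in wt and 37.5% in dcat, and in dcat busulfan replicate 2 lies above replicate 1 for each of the 9.

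The 4 lowest fold changes of the members in wt were those of the actin-like genes Actrt2, Actl7a, Actl7b and Actl9. All 4 entered the table through vehicle groups only, so some fall was built into their selection. Actl7a, an actin-like protein of the acrosome region, had 562 and 429 CPM with vehicle against 13.1 and 9.41 with busulfan in wt, and 498 and 615 against 32.1 and 141 in dcat. The wt busulfan values rest on 2 reads in all against 59, a ratio of vehicle over busulfan of 44.3 (95% counting interval 11.7 to 374). In dcat it fell by 2.58 ± 0.52 on the log2 scale (edgeR adjusted p = 0.00037). Actl7b, its neighbour in the genome and likewise a spermatid protein, had 1201 and 1473 with vehicle against 0 and 65.9 with busulfan in wt, and 2124 and 1366 against 64.2 and 152 in dcat. It fell by 5.10 ± 0.59 in wt (edgeR adjusted p = 2.3e-07) and fell by 3.88 ± 0.51 in dcat (edgeR adjusted p = 1.2e-05). Actrt2, an actin-related protein of the sperm head, had 775 and 858 with vehicle against 0 and 9.41 with busulfan in wt, and 531 and 847 against 0 and 174 in dcat. In wt busulfan that is 1 read against 100, a ratio of 150.2 (counting interval 26.4 to 5992), and in dcat it fell by 2.85 ± 0.58 (edgeR adjusted p = 0.00041). The libraries of 0 reads allow up to 3 reads, or, before TMM scaling, 45.4 CPM in wt busulfan replicate 1 and 48.8 in dcat busulfan replicate 1.

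Actl9, which spermatids need to form the acrosome and anchor it to the nucleus, had 891 and 686 CPM with vehicle against 26.2 and 28.2 with busulfan in wt, and 564 and 775 against 112 and 239 in dcat. It fell by 4.76 ± 0.57 in wt (edgeR adjusted p = 3.3e-07) and fell by 1.91 ± 0.44 in dcat (edgeR adjusted p = 0.001). Actl11 fell by 3.43 ± 0.66 in wt and fell by 1.37 ± 0.55 in dcat (edgeR adjusted p = 0.033). Its call in dcat was lost under DESeq2 (adjusted p = 0.070), with only the 4 dcat libraries (edgeR adjusted p = 0.055), and without dcat busulfan replicate 1 (-0.78, edgeR adjusted p = 0.26) or dcat vehicle replicate 2 (-1.48, edgeR adjusted p = 0.13). The 5 actin-like genes together gave 69.6% and 63.6% of the reads of actin and actin-like genes in wt vehicle and 66.1% and 65.5% in dcat vehicle. After busulfan these shares were 2.14% and 3.62% in wt and 6.98% and 21.3% in dcat.

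The actins themselves did not all move alike. Actb, the cytoplasmic beta-actin often used as a reference gene, had 484 and 443 CPM with vehicle against 183 and 471 with busulfan in wt, and 365 and 495 against 225 and 511 in dcat. Its log2 fold change was -0.46 ± 0.46 in wt (edgeR adjusted p = 0.37) and -0.24 ± 0.46 in dcat (edgeR adjusted p = 0.66), and its 2 busulfan libraries differed from each other by more than the group means did in either genotype. Actg1, the cytoplasmic gamma-actin, is read as a pair of transcripts that share 99.9% of their 3′ words, so that the split between them is not reliable. Actg1-202 had 833 and 1287 with vehicle against 1819 and 2128 with busulfan in wt, and 1294 and 1166 against 2023 and 1684 in dcat. It rose by 0.89 ± 0.33 in wt (edgeR adjusted p = 0.018), and in dcat its value was 0.60 ± 0.33 (edgeR adjusted p = 0.12), although each busulfan library lay above each vehicle library there too. Actg1-204 rose in wt by 1.06 ± 0.41 (edgeR adjusted p = 0.021), with 0.81 ± 0.42 in dcat (edgeR adjusted p = 0.092). In wt the call of Actg1-202 was lost under DESeq2 (adjusted p = 0.081) and without wt busulfan replicate 2 (0.77, edgeR adjusted p = 0.11), and that of Actg1-204 under DESeq2 (adjusted p = 0.12) and without wt busulfan replicate 1 (edgeR adjusted p = 0.055) or wt busulfan replicate 2 (edgeR adjusted p = 0.081). Actg1 gave 69.5% and 78.2% of the reads of both cytoplasmic actins in wt vehicle and 92.9% and 85.3% in wt busulfan. In dcat these were 80.7% and 74.7% after vehicle and 92.0% and 80.3% after busulfan.

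Acta2, the smooth muscle actin that marks the contractile peritubular cells, had 38.7 and 129 CPM with vehicle against 406 and 546 with busulfan in wt, and 166 and 71.9 against 385 and 576 in dcat. It rose by 2.41 ± 0.55 in wt (edgeR adjusted p = 0.00044) and by 2.32 ± 0.55 in dcat (edgeR adjusted p = 0.0013). Acta2 too entered the table through busulfan groups only, so some rise was built into its selection. The peritubular marker list was read only through Myl9 and Igfbp6, with Myh11, Tagln, Cnn1 and Ptch1 not in the table, and its sum was 99 to 236 CPM in the vehicle libraries and 848 to 1408 in the busulfan libraries. Their part in the rise of Acta2 was not tested. Of the actin-related proteins of dynactin and of the Arp2/3 complex, Actr10 fell by 1.84 ± 0.43 in wt (edgeR adjusted p = 0.00051), with -0.75 ± 0.41 in dcat (edgeR adjusted p = 0.11), and Actr1a and Actr2 passed in neither genotype.

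**Figure D3:**
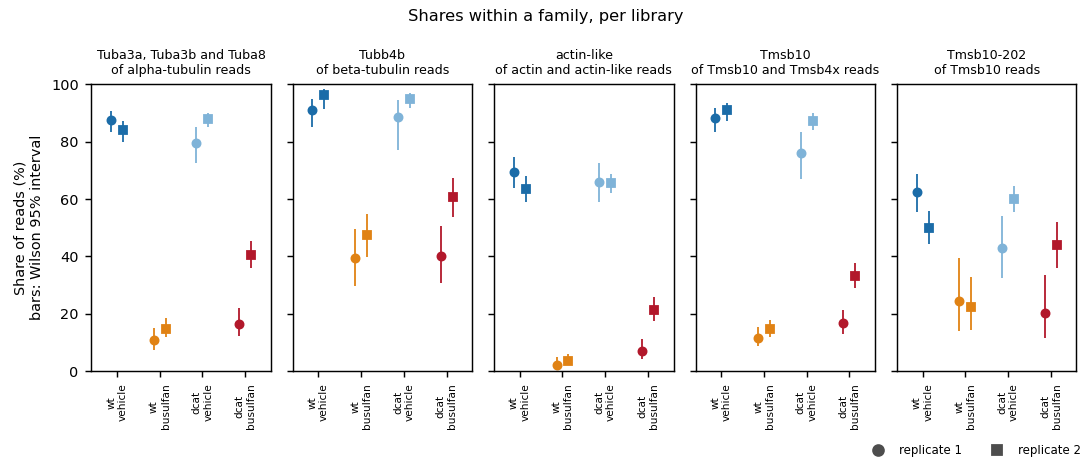
Share of reads (percent) taken by named isoforms within their family in each library, with Wilson 95% intervals for counting error. In all 5 panels the busulfan libraries of wt lie below the vehicle libraries, and dcat busulfan replicate 2 is the highest of the busulfan libraries.

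Regulators of actin assembly also split by isoform. Cfl1, the non-muscle cofilin that severs filaments, had 310 and 229 CPM with vehicle against 681 and 716 with busulfan in wt, and 365 and 304 against 787 and 587 in dcat. It rose by 1.39 ± 0.41 in wt (edgeR adjusted p = 0.0038) and by 1.07 ± 0.40 in dcat (edgeR adjusted p = 0.024), where the call was lost under DESeq2 (adjusted p = 0.17), with only the 4 dcat libraries (edgeR adjusted p = 0.088), and without dcat busulfan replicate 1 (edgeR adjusted p = 0.11) or dcat vehicle replicate 2 (edgeR adjusted p = 0.14). Pfn1, the ubiquitous profilin, had 96.8 and 71.5 with vehicle against 105 and 358 with busulfan in wt, and 99.6 and 87.9 against 193 and 196 in dcat. Its rise in wt, 1.53 ± 0.61 (edgeR adjusted p = 0.026), came with 8 reads in replicate 1 and 38 in replicate 2 of wt busulfan, and without replicate 2 its value was 0.34 (edgeR adjusted p = 0.70). DESeq2 (adjusted p = 0.17) and leaving out wt vehicle replicate 2 (edgeR adjusted p = 0.080) lost this call too. In dcat its value was 1.09 ± 0.61 (edgeR adjusted p = 0.12). Pfn1 too entered the table through busulfan groups only. Pfn4, the profilin of spermatids, had 194 and 172 with vehicle against 0 and 18.8 with busulfan in wt, and 133 and 152 against 0 and 86.9 in dcat. In wt busulfan that is 2 reads against 22, a ratio of 16.5 (counting interval 4.06 to 145). In dcat its value was -1.50 ± 0.68 (edgeR adjusted p = 0.058), which leaves it as the germ cell transcript that did not pass there.

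The beta thymosins, small peptides that hold actin monomers out of the filament, moved in opposite directions. Tmsb4x, made in most somatic and blood cells, had in its most-read transcript Tmsb4x-201 232 and 200 CPM with vehicle against 2447 and 2128 with busulfan in wt, and 597 and 328 against 2168 and 1587 in dcat. This transcript rose by 3.40 ± 0.41 in wt (edgeR adjusted p = 3.3e-07) and by 2.14 ± 0.38 in dcat (edgeR adjusted p = 0.00015), and Tmsb4x-203 rose by 2.95 ± 0.39 and 3.07 ± 0.40. Tmsb10, also of wide use, went down in both of its transcripts. Tmsb10-202 had 2440 and 2016 with vehicle against 131 and 160 with busulfan in wt, and 1095 and 2181 against 161 and 696 in dcat. Tmsb10-203 had 1472 and 2016, 406 and 555, 1460 and 1446, and 626 and 891. Tmsb10-202 fell by 3.91 ± 0.50 in wt (edgeR adjusted p = 8.4e-07) and fell by 1.92 ± 0.45 in dcat (edgeR adjusted p = 0.0011). Tmsb10-203 fell by 1.85 ± 0.36 in wt (edgeR adjusted p = 7.4e-05) and fell by 0.92 ± 0.35 in dcat (edgeR adjusted p = 0.025), the last lost without dcat busulfan replicate 1 (-0.70, edgeR adjusted p = 0.15) or dcat vehicle replicate 2 (-0.85, edgeR adjusted p = 0.085). Both transcripts end at nearly the same base but differ in their starts, whose overlapping windows are printed above, the inner one for Tmsb10-202 (annotated 72957353 to 72958302 on chromosome 6) and the middle one for Tmsb10-203 (72957347 to 72958488).

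Within Tmsb10, Tmsb10-202 took 62.4% and 50% of reads with vehicle against 24.4% and 22.4% with busulfan in wt, and 42.9% and 60.1% against 20.4% and 43.8% in dcat. The transcript of the inner start was therefore the larger or equal part in 3 of 4 vehicle libraries and the smaller part in each busulfan library. The transcripts share 70.9% of the 3′ words of the shorter of the pair, and direct RNA reads often stop before the 5′ end, so some reads may have been given to the wrong start. Tmsb10 as a whole made up 88.2% and 91.0% of Tmsb10 and Tmsb4x reads in wt vehicle and 11.5% and 14.6% in wt busulfan, and in dcat 76.2% and 87.3% after vehicle and 16.7% and 33.2% after busulfan. Tmsb10b, a single-exon copy on chromosome 7 whose 3′ words are shared at 62.4% to 73.8% with Tmsb10, fell by 1.36 ± 0.48 in wt (edgeR adjusted p = 0.013) and fell by 1.99 ± 0.48 in dcat (edgeR adjusted p = 0.0014). Its call in wt was lost without wt busulfan replicate 2 (-1.03, edgeR adjusted p = 0.14), wt vehicle replicate 1 (-1.18, edgeR adjusted p = 0.064) or wt vehicle replicate 2 (-1.02, edgeR adjusted p = 0.13). Tmsb15b2 rose in dcat by 1.48 ± 0.56 (edgeR adjusted p = 0.025), with 1.04 ± 0.59 in wt (edgeR adjusted p = 0.11), and its call in dcat was lost under DESeq2 (adjusted p = 0.21), with only the 4 dcat libraries (edgeR adjusted p = 0.053), and without dcat busulfan replicate 2 (edgeR adjusted p = 0.13) or dcat vehicle replicate 2 (edgeR adjusted p = 0.20). Tmsb15b2 entered the table through busulfan groups only. Pfn2 passed in neither genotype.

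Partners of these polymers, taken from lists and not members themselves, differed between the lists in how many rose or fell. The actin list runs from capping and nucleating proteins to myosins, tropomyosins and smooth muscle genes. The tubulin list runs from chaperonin and prefoldin subunits to dynein light chains and microtubule-associated proteins. Partners entered the table by the same rule of 10 reads, so some of their change may be built into the selection. Of 41 actin partners, 19 genes (22 transcripts) were in the table. In wt 17 transcripts rose and 1 fell after busulfan, where 35.4% of all transcripts rose and 38.3% fell. Their median log2 fold change in wt was 2.25 against 0.09 for all transcripts. In dcat 15 rose and 1 fell, where 31.3% of all transcripts rose and 31.4% fell. The transcript that fell in both was Capza3, the capping protein subunit of spermatids, whose log2 fold change was -4.66 in wt and -2.26 in dcat, while its broadly made relative Capza2 rose by 2.03 and 1.91. Arpc1b and Arpc3, subunits of the Arp2/3 complex that nucleates branched filaments, rose in wt by 4.27 and 3.88. Of 42 tubulin partners, 24 genes (29 transcripts) were in the table. Beside the same shares of all transcripts, 3 rose and 17 fell in wt, with a median of -1.08, and 2 rose and 14 fell in dcat. The fall covered Tcp1, the first subunit of the chaperonin that folds actin and tubulin (log2 fold change -2.50 in wt for its most-read transcript), Cct6b, its testis subunit (-2.89), and the dynein light chains Dynlt1a and Dynlt1b (-2.67 and -2.22). Dynlrb1 and the plus-end protein Mapre1 were among those that rose, by 3.04 and 1.89 in wt. Between genotypes after busulfan Capza3 was higher in dcat by 2.50 ± 0.74 (edgeR adjusted p = 0.047), the single partner that passed in a comparison of genotypes. In tails, 1 of 14 tubulin partners tested in wt was shorter after busulfan, Pfdn5, a prefoldin subunit that hands tubulin and actin to the chaperonin (-55.7 ± 13.6 nt, limma adjusted p = 0.012), and in dcat 1 of 13, Tppp2 (-62.7 ± 10.5 nt, limma adjusted p = 0.0043), where 31.9% of all transcripts tested were shorter in wt and 25.6% in dcat. Tails of 0 of 3 actin partners passed in wt and 0 of 1 in dcat (limma).

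The second comparison asked whether the catalytically dead allele changed these genes. After vehicle, 0 of 32 members passed in counts, where 0% of all transcripts did (edgeR, with 1 member and 65 of all transcripts at an unadjusted p under 0.05, and 0 called by DESeq2). The log2 fold changes of dcat against wt lay between -0.55 and 0.97, with a median of -0.18 for the germ cell transcripts and -0.02 for the general transcripts. Their standard errors were 0.34 to 0.84, so that a change of this size in a single member was not detectable here.

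After busulfan 1 member passed, where 5.82% of all transcripts did. This was Actl9, higher in dcat by 2.67 ± 0.66 (edgeR adjusted p = 0.021), with 112 and 239 CPM against 26.2 and 28.2 in wt. It stayed past the threshold in 10 of 14 alternatives, with adjusted p between 0.0012 and 0.52, and not under DESeq2 (adjusted p = 0.058) or without dcat busulfan replicate 2, wt busulfan replicate 1 or wt busulfan replicate 2. Of the 32 members, 10 had an unadjusted p under 0.05. All 9 germ cell transcripts had values above 0, from 1.21 to 3.83 with a median of 2.07, against a median of 0.01 in the general transcripts and 0.20 in all transcripts. Of the general members, Tmsb10-202 was the highest, with 1.59 ± 0.53 (edgeR adjusted p = 0.069). With the multiplexed library as a block, 5 members passed: Actl9, Actl7a (2.91 ± 0.92, edgeR adjusted p = 0.044), Actrt2 (3.77 ± 1.09, edgeR adjusted p = 0.026), Tuba3a (1.32 ± 0.42, edgeR adjusted p = 0.044) and Tmsb10-202 (1.51 ± 0.48, edgeR adjusted p = 0.043). In wt busulfan Actl7a had 2 reads and Actrt2 had 1, so that dcat over wt was 8.88 (counting interval 2.06 to 80.0) for Actl7a and 18.9 (2.94 to 794) for Actrt2.

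These values depended on single libraries. Without dcat busulfan replicate 2, 0 members passed and the germ cell median was 0.44, with values from -2.91 to 1.99. Without dcat busulfan replicate 1, 7 members passed and the germ cell median was 2.82, and without wt busulfan replicate 1 or wt busulfan replicate 2, 0 passed. Germ cell markers were also higher in dcat busulfan: spermatocyte markers (3 of 6 in the table, without Sycp1, Piwil1 and Ccna1) summed to 1204 and 2658 CPM in dcat busulfan against 515 and 632 in wt busulfan, and round spermatid markers (6 of 6) to 455 and 920 against 45 and 251. The Leydig and erythroid sums given above were lower in dcat busulfan than in wt busulfan. The part of these cell types in the higher reads of Actl9 and the other germ cell transcripts was not tested.

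The interaction asked whether busulfan changed a member by a different amount in the 2 genotypes, and 0 of 32 members passed, against 0.323% of all transcripts (8 members at an unadjusted p under 0.05, and 0 called by DESeq2). Actl9 had the lowest adjusted p, with a difference of 2.85 ± 0.78 (edgeR adjusted p = 0.057). With the block, 3 members passed: Actl9 (2.88 ± 0.79, edgeR adjusted p = 0.027), Actrt2 (4.07 ± 1.19, edgeR adjusted p = 0.036) and Tmsb10-202 (2.05 ± 0.60, edgeR adjusted p = 0.037). Without dcat busulfan replicate 2 it was 0.

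Tails of both classes could be read in the vehicle testes, where germ cell transcripts had enough reads. There the alpha-tubulins Tuba3a and Tuba3b of germ cells and the general Tuba1a and Tuba1b all lay below the library mean: Tuba3a averaged 109 and 111 nt in wt and 110 and 116 nt in dcat, Tuba3b 117 and 109 nt and 105 and 116 nt, and Tuba1b 110 and 103 nt in wt and 114 nt in the dcat library with 10 reads or more. Tuba1a was shorter still, at 86.9 nt on 10 reads in wt vehicle replicate 2 and 96.7 nt on 22 in dcat vehicle replicate 2. Over all reads of these 4 libraries the mean was 134 to 144 nt. Tuba1c lay above it, with 151 and 148 nt in wt vehicle and 173 nt in dcat vehicle replicate 2.

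The actin-like transcripts differed among themselves. Actl7a averaged 174 and 160 nt in wt vehicle and 155 and 158 nt in dcat vehicle, and Actl9 166 and 154 nt and 167 and 158 nt. Actl7b, the neighbour of Actl7a, averaged 118 and 122 nt in wt and 131 and 133 nt in dcat, below Actl7a in each of the 4 libraries. Actrt2 lay between, with 137 and 153 nt and 132 and 153 nt. In wt vehicle, 81.5% ± 11.5 (SD, n = 2) of Actl7a reads had tails of 120 to 210 nt, against 49.9% ± 9.0 of Actl7b reads and 36.2% ± 1.7 of Tuba3a reads. Taken over all reads, germ cell transcripts had shorter tails than general transcripts in each of the 8 libraries, with differences of -15.8 and -12.6 nt (wt) and -16.6 and -16.5 nt (dcat) with vehicle and of -13.4 and -1.28 nt (wt) and -8.83 and -0.70 nt (dcat) with busulfan. When each transcript counted once, the difference was 1.92 and 5.60 nt in wt vehicle and -13.4 and -1.09 nt in dcat vehicle.

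**Figure D4:**
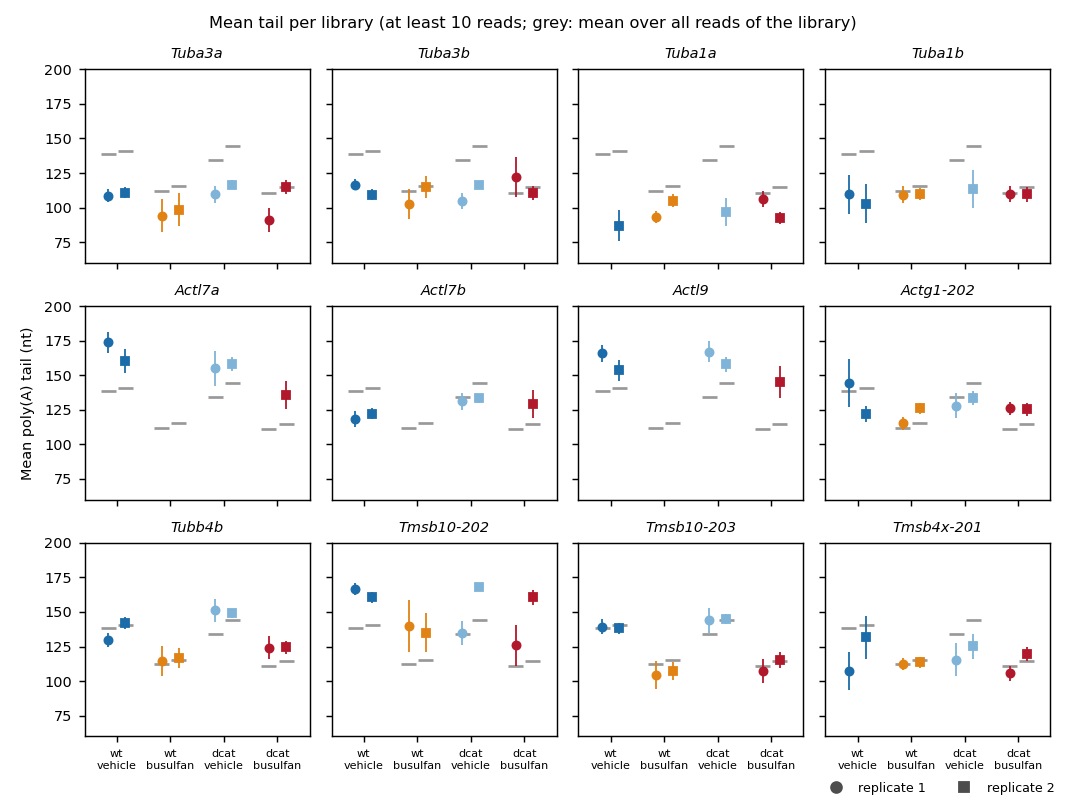
Mean poly(A) tail in nucleotides (axis from 60 to 200) of 12 transcripts in each library with at least 10 of their reads, with bars of 1 standard error over reads. Grey lines give the mean over all reads of the library, which is lower in the busulfan libraries. Tuba3a, Tuba3b, Tuba1a and Tuba1b lie below the grey lines after vehicle, and Tubb4b and Tmsb10-203 drop with the library mean.

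After busulfan, the mean tail over all reads was lower, at 111 to 115 nt in the 4 busulfan libraries. It was 134 to 144 nt in the 4 vehicle libraries, which hold a different mix of transcripts. Of the 32 members, 16 had at least 10 reads in each wt library and could be tested there, of them 2 germ cell transcripts (Tuba3a and Tuba3b). Tails of 3 members were shorter and of 0 longer, where 31.9% of the 527 transcripts tested were shorter and 0.569% longer (limma on mean tails, Benjamini-Hochberg over these). In dcat 10 members could be tested and 2 were shorter, where 25.6% of 441 transcripts were shorter and 0% longer. The median difference was -16.5 nt in members and -19.9 nt in all transcripts in wt, and -8.97 nt and -17.2 nt in dcat.

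Tmsb10-203 averaged 139 and 138 nt with vehicle against 104 and 107 with busulfan in wt, and 144 and 145 against 107 and 115 in dcat. Its tail differed by -32.9 ± 7.0 nt in wt (limma adjusted p = 0.0065) and -33.1 ± 6.7 nt in dcat (limma adjusted p = 0.0094). Tmsb10-202, from the inner start, averaged 167 and 160 nt, 140 and 135 nt, 135 and 168 nt, and 126 and 161 nt, with differences of -26.2 ± 12.4 nt in wt (limma adjusted p = 0.13) and -8.0 ± 13.0 nt in dcat (limma adjusted p = 0.66). In wt vehicle the transcript of the inner start averaged 164 ± 4.3 nt and that of the middle start 139 ± 0.9 nt (SD, n = 2). Tubb4b averaged 130 and 142 nt with vehicle against 115 and 117 with busulfan in wt, and 151 and 149 against 124 and 124 in dcat. Its tail differed by -20.1 ± 6.7 nt in wt (limma adjusted p = 0.042) and -25.8 ± 6.5 nt in dcat (limma adjusted p = 0.022). The tail of Tmsb10b differed in wt by -48.0 ± 13.6 nt (limma adjusted p = 0.022), from 125 and 152 nt to 100 and 81.0 nt on 13 to 29 reads each. Leaving out 1 library lost the call of Tubb4b in wt for each of the 4 wt libraries (-26.4 to -13.8 nt, limma adjusted p = 0.064 to 0.25) and in dcat for 3 of 4, all but dcat busulfan replicate 2. That of Tmsb10b was lost without wt busulfan replicate 2 (-38.5 nt) or wt vehicle replicate 2 (-34.5 nt), and that of Tmsb10-203 without wt busulfan replicate 1 in wt (-31.3 nt, limma adjusted p = 0.056) and without dcat busulfan replicate 1 (-29.1 nt, limma adjusted p = 0.12) or dcat vehicle replicate 1 (-33.6 nt, limma adjusted p = 0.055) in dcat.

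Neither germ cell alpha-tubulin passed in tails. Tuba3a was 94.2 and 98.5 nt in wt busulfan and 91.2 and 115 nt in dcat busulfan, with differences of -13.4 ± 8.6 nt (limma adjusted p = 0.26) and -9.9 ± 8.6 nt (limma adjusted p = 0.42). Tuba3b differed by -4.4 ± 7.7 nt and 5.7 ± 7.7 nt, and Tuba1b in wt by 3.2 ± 7.8 nt (limma adjusted p = 0.80). Intervals of this width do not show that these tails were the same. Cfl1 (-26.5 ± 9.5 nt, limma adjusted p = 0.052) and Tuba1c (-32.2 ± 12.5 nt, limma adjusted p = 0.069) missed the threshold in wt. Each library was also centred on its own median, taken over the transcripts with 10 reads or more in that library. These medians were 147 and 148 nt in wt vehicle and 119 and 122 nt in wt busulfan. They run over different transcripts, and the transcripts tested in wt differed by a median of -19.9 nt, so centring took out more than their own fall. When centred, none of the shorter tails passed, and Tubb4b turned to 6.48 nt longer in wt (limma adjusted p = 0.61). On that scale Tuba1b (29.8 ± 9.0 nt, limma adjusted p = 0.020) and Tuba3b (22.2 ± 7.8 nt, limma adjusted p = 0.047) were longer in wt, and Tuba3b (26.2 ± 7.6 nt, limma adjusted p = 0.041) in dcat.

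Between genotypes, tails of 0 of 15 members passed after vehicle, where 0% of 720 transcripts did, and 0 of 19 after busulfan, where 0.505% of 1188 did (limma). The interaction gave 0 of 10, against 0.885% of 339. Differences of dcat against wt after vehicle were 3.4 ± 8.7 nt for Tuba3a, -10.3 ± 21.5 nt for Actl7a, 11.9 ± 8.7 nt for Actl7b, 2.6 ± 34.5 nt for Actl9 and 14.1 ± 6.3 nt for Tubb4b. These standard errors rest on all 8 libraries, including busulfan means on few reads (2, 3, 7 and 22 for Actl9). Within vehicle groups the SD was 8.6 nt (wt) and 6.6 nt (dcat) for Actl9, and 2.7 and 1.5 nt for Actl7b. Vehicle library means did not overlap between genotypes for Actl7a, Actl7b and Tubb4b, and did for Tuba3a and Actl9. The vehicle result of 0 of 15 is therefore no evidence that these tails were alike. None of the 5 actin-like transcripts could be tested after busulfan, since too few of their reads were left. In dcat busulfan replicate 2, where 13 to 22 reads remained of Actl7a, Actl7b, Actl9, Actl11 and Actrt2, their tails averaged 136, 129, 145, 130 and 150 nt.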

How the data were processed

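Poly(A) RNA of 8 testes was sequenced directly on nanopores. The study's methods state that each of 2 multiplexed libraries, replicates 1 and 2, held 1 mouse of each group. The labels give only the replicate number, which was taken to mark the library. The deposited values are raw read counts per transcript and the poly(A) tail of each read in nucleotides, made by the authors by alignment to mouse transcripts (GRCm38) with minimap2 (2.20-r1061 in the submitters' processing notes) and filtering of tail calls. The 2 deposited tables of the authors' own DESeq2 fold ratios and p-values between genotypes were not used. Rows without a gene symbol (68) held 1.38% of reads and could not be matched by the rule. The members and lists were chosen with earlier results of these data known.

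Counts of all 2783 transcripts were fitted with edgeR 4.0.16 (quasi-likelihood, TMM, all 8 libraries, 4 group means), and mean tails with limma 3.58.1 (trend on log2 mean reads) for transcripts with at least 10 reads in each library of the contrast, both two-sided with Benjamini-Hochberg adjustment at 0.05. Both were tested on simulated data. The tail fits also used all 8 libraries, so means on under 10 reads outside the contrast entered the spread. Library totals over these 2783 transcripts were 29574 to 129074 reads. Every library's value was given for 18 listed genes (where present) and for members past the threshold between genotypes, and other members past a threshold were named with their change. Deviations of same-numbered libraries correlated at -0.16 to 0.23 in counts (1235 transcripts) and 0.0061 to 0.062 in tails (339). The pairing comes from the study's methods and the replicate numbers of the labels. With 2 mice per group, p-values rest on a spread estimated over all 8 libraries and shared across transcripts. A group with a wider spread is not set apart by them, and they cover so few animals only. Alternatives were RLE scaling, DESeq2 1.42.0, filterByExpr, sums per gene, the replicate block, other tail summaries and leaving out each library.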

Additional observations from a re-analysis of the deposited data

How the results depend on the processing

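Under RLE scaling, DESeq2, filterByExpr, sums per gene, the 4 libraries of a contrast alone and the replicate block, the members called after busulfan kept their direction in both genotypes. Calls were kept in 147 and lost in 9 such refits in wt and kept in 115 and lost in 13 in dcat. Leaving out 1 library gave 12 to 23 called members in dcat, the lowest without dcat vehicle replicate 2, the deepest library, where Acta2 (1.62), Actl11, Cfl1, both Tmsb10 transcripts, Tmsb15b2, Tuba1c, Tuba8 (-1.62), Tubb3 and Tubb4b were lost. Over all transcripts in dcat, 1746 calls became 1095 under DESeq2 and 712 without that library. The 1 call between genotypes after busulfan became 0 under DESeq2, 4 with only the 4 libraries of the contrast, 5 with the replicate block and 0 to 7 on leaving out 1 library, and the 162 calls over all transcripts became 47 under DESeq2 and 7 to 360 on leaving out 1 library. Leaving out libraries gave -2.09 to 5.86 for Actrt2 and -0.14 to 2.07 for Tuba3b. Both lowest values, which turn the direction, are without dcat busulfan replicate 2, and that of Actrt2 is set against 0 reads. The interaction gave 1 member under RLE, 3 with the replicate block and 0 to 6 on leaving out 1 library. Its 9 calls over all transcripts became 68 under RLE, 36 under filterByExpr, 41 summed per gene, 123 with the replicate block and 3 to 257 on leaving out 1 library. The paired analysis (replicate block) otherwise changed only the calls of Tuba1c and Tubb3 given above. The cause was not tested for any of these.

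For tails in wt, 3 shorter members became 5 when means on under 10 reads were left out and 6 with only the 4 libraries of the contrast (both chosen after seeing the data), and 1 to 5 on leaving out 1 library. Centring each library turned Tubb4b to 6.48 nt. In dcat, 2 became 1 when centred (then longer, Tuba3b), 1 when reads were pooled per gene and 0 to 2 on leaving out 1 library. Over all transcripts the tail calls, 171 in wt and 113 in dcat, became 91 and 50 when centred, 101 in wt with at least 20 reads and 188 in dcat with read weights. Between genotypes after busulfan, 6 became 0 without the trend and 13 to 21 under log2 tails, read weights, the 4 libraries alone or means on under 10 reads left out. For the interaction, 3 became 8 when centred, 5 for log2 tails, 1 for medians or pooling per gene and 0 without the trend. The difference of germ cell and general tails averaged over each transcript once was 3.76 nt (wt) and -7.26 nt (dcat) with vehicle and 13.0 nt (wt) and -9.15 nt (dcat) with busulfan. Taken over all reads, leaving out Tuba8 moved it from -16.5 to -16.9 nt in dcat vehicle and the germ cell share of member reads there from 44.3% to 43.3%. In wt busulfan 7 of the 9 germ cell transcripts had 1 to 7 reads in all, so depth limits their fold changes and tails there.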
